A study of Mus musculus with 4 samples.

Results

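Antisense long non-coding RNAs are transcripts annotated on the strand opposite to another gene, and the rows described here are those of the small RNA libraries that were assigned to such transcripts. A row was taken when its Ensembl mouse transcript had the gene type antisense in GENCODE M21 (GRCm38) and its gene lay outside chromosomes X and Y. Of 411 rows in the other-RNA tables, which hold everything that is not a miRNA, piRNA or tRNA row, 111 were antisense and 3 of these lay on X, which left 108 rows of 102 genes. The libraries came from small extracellular vesicles of plasma from wild type mice on a normal diet, 2 libraries 12 h after myocardial infarction (MI) surgery and 2 libraries 12 h after sham surgery. Vesicles were collected by differential centrifugation, and the library kit tags each captured RNA molecule with a unique molecular identifier (UMI), so a UMI count is a count of molecules. The labels do not say whether the libraries of a group came from separate mice. Every p-value below therefore sets the group difference only against scatter between libraries, and that scatter may be technical. Levels are UMIs per 1000000 UMIs of all tables, written UPM. The tables start at 10 UMIs, so an unlisted row held 0 to 9 UMIs and was entered as 0.

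Long antisense transcripts can act at their own locus, by recruiting chromatin modifiers, interfering with transcription of the gene across from them or pairing with its RNA, and some host miRNAs. Many are transcribed from the promoters of developmental regulators. Vesicles in plasma carry mostly short RNAs and pieces of longer ones, so a row here counts short fragments placed on the transcript and not intact long RNAs. The sources used here do not say whether counting used the strand, so fragments of an antisense transcript and of the gene across from it cannot be told apart. In 68 of the 108 rows the antisense transcript overlapped exons of the opposite gene, in 34 only the spans of the genes overlapped, and in 6 no opposite-strand gene overlapped. The opposite gene was protein coding for 93 rows.

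The rows that were abundant and higher after MI held long uninterrupted stretches of purines (A and G) or of pyrimidines (C and T). These stretches are shown first because fold changes were larger in rows with longer ones. Below, the run is in capitals, with up to 10 flanking bases in lower case, read 5′ to 3′ on the strand of the antisense transcript from the GENCODE M21 transcript sequences. The 8 rows shown are among the 10 that passed the test and were listed in all 4 libraries.
Gm15716 (chr8:69063158-69063317, + strand): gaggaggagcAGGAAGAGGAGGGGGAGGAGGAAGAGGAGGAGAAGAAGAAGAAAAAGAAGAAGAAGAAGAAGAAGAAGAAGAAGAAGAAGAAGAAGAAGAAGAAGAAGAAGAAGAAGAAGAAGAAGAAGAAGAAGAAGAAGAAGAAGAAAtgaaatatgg
9530026P05Rik (chr6:93143971-93144082, + strand): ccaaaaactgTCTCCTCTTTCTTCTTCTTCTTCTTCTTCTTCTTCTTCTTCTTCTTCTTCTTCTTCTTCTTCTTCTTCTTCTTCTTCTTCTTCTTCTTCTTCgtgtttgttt
Emx2os (chr19:59427081-59427204, - strand): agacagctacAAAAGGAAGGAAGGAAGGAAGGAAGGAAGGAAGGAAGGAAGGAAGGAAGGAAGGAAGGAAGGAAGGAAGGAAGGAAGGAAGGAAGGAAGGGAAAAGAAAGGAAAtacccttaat
Gm15584 (chr1:146823573-146823714, - strand): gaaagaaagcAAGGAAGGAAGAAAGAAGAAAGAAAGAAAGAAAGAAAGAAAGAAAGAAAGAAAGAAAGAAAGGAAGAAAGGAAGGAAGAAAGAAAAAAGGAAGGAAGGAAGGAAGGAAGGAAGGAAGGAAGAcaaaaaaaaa
Pnpla1os (chr17:28857923-28857997, - strand): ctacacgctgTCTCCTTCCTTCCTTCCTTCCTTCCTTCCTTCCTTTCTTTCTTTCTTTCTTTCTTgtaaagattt
4933431E20Rik (chr3:107889885-107889966, - strand): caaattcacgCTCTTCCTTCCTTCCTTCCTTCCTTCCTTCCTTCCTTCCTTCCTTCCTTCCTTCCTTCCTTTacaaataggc
Snhg7os (chr2:26642564-26642649, + strand): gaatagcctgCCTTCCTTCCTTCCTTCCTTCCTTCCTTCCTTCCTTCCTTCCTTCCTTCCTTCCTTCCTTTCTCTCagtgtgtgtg
Vax2os (chr6:83701877-83702111, - strand): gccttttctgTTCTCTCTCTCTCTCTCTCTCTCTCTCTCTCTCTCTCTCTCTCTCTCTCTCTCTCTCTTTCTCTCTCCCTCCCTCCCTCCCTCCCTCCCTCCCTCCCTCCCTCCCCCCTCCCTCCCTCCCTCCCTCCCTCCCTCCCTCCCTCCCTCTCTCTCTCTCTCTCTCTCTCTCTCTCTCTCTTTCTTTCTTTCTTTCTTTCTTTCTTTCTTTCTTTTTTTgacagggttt
Units of GAA or its complement TTC were visible in Gm15716 and 9530026P05Rik. Units of GGAA or its complement TTCC filled most of Emx2os, Pnpla1os, 4933431E20Rik and Snhg7os, units of GAAA and GGAA made up Gm15584, and Vax2os joined stretches of TC, TCCC and TTTC.

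Antisense fragments together were higher after MI. They made up 6043 and 6502 UPM in the MI libraries, against 2088 and 2056 in the sham libraries. The means were 6272 ± 325 in MI and 2072 ± 22.8 in sham (SD, n = 2 each), 3.03 times as high in MI. The groups were far apart, and the MI libraries listed 65 and 61 rows, against 74 and 42 rows in the sham libraries. Over the 31 rows listed in all 4 libraries alone the ratio was 3.08. In the file headers, replicate 2 of MI and of sham carry a tag that replicate 1 lacks, of unexplained meaning, and the ratio was 2.89 between the first replicates and 3.16 between the second ones. The rise was not limited to antisense rows in these values: lincRNA rows summed to 2.36 times and processed transcript rows to 2.53 times the sham level, and whether the antisense ratio differed from these was not tested. All other-RNA rows together held 18.9% and 27.8% of UMIs in MI, against 11.5% and 15.3% in sham, so antisense UMIs as a share of other-RNA UMIs were 3.19% and 2.34% in MI, against 1.82% and 1.34% in sham. That ratio was 1.75. The 14 other-RNA rows without a matched transcript, which include ribosomal RNA, held most of these UMIs. They had 142867 of 165222 and 150119 of 168798 other-RNA UMIs in MI, against 157671 of 174647 and 105120 of 114391 in sham. The other-RNA total and shares of it therefore mostly reflect these 14 rows. All these levels are shares of a library, so a rise in antisense RNA and a fall in other RNA classes cannot be told apart. Neither the number of vesicles nor the RNA per vesicle can be read from them.

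The libraries were of moderate depth, with 606756 to 872459 UMIs in MI and 746567 to 1523731 UMIs in sham over all tables, and antisense rows had 1535 to 5272 of these. Among marker miRNAs of other sources, the heart and skeletal muscle list summed to 1355 and 1351 UPM in MI, against 420 and 273 in sham, with 2 of 3 markers listed in all libraries and miR-208a-3p unlisted in sham. The hepatocyte list (2 of 2 markers listed) summed to 3199 and 3049 in MI, against 9175 and 7911 in sham. Most of it was miR-122-5p, while miR-192-5p overlapped between groups (375 and 368 in MI, 524 and 347 in sham). The red cell list (3 of 3) summed to 12926 and 9961 in MI, against 8492 and 8006 in sham. Most of it was miR-486a-5p (12356 and 9562 in MI, 8114 and 7731 in sham). The groups were separate in miR-451a (503 and 303 in MI, 281 and 214 in sham). They overlapped in miR-144-3p (66.5 and 95.6 in MI, 97.8 and 60.3 in sham). The platelet and myeloid list (2 of 2) summed to 4947 and 5103 in MI, against 7280 and 5547 in sham, and its miR-142a-3p overlapped between groups. The endothelial marker had 3353 and 3553 in MI, against 3817 and 2624 in sham. The part of these sources in the antisense rows was not tested.

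Row by row, 54 of the 108 antisense rows had enough UMIs to be tested. In edgeR's quasi-likelihood F-test over all other-RNA rows with Benjamini-Hochberg adjustment, 18 of them rose and 0 fell after MI. Of the 18, 10 were listed in all 4 libraries. The other 8 were unlisted in both sham libraries and entered the test only through their MI values, so they had to differ and support nothing further. Across all 219 rows tested, 28.8% were called higher and 0.913% lower, so the 33.3% of antisense rows called higher lay near the background. At an unadjusted p under 0.05 in edgeR, 20 antisense rows were higher and 0 lower, beside 77 and 2 of all 219 rows. DESeq2's Wald test called 21 antisense rows higher and 0 lower, beside 79 and 0 of all 219 rows. The median log2 fold change of the tested antisense rows was 1.63, and that of all tested rows was 1.57. With rows unlisted in a whole group set to their bound, these medians were 1.28 and 1.38. Of the 31 antisense rows listed in all 4 libraries, both MI libraries were above both sham libraries in 19 and below both in 2, where 73.7% and 4.39% of the 114 such rows of the whole table did so.

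The calls depend on the scale and on both MI libraries. Scaled within the other-RNA table, edgeR called 0 antisense rows with TMM factors, DESeq2 size factors or the table's own total as library size. At an unadjusted p under 0.05 in edgeR, 16 of 55, 15 of 55 and 18 of 56 antisense rows were higher. Lower were 3, 4 and 2. Of all rows tested, 48 of 224, 45 of 224 and 60 of 233 were higher, and 15, 17 and 9 lower. The median of all rows moved to 0.33, 0.20 and 0.67. Read counts in place of UMIs gave 7 antisense rows, where 27 of all rows were called higher. Without MI replicate 1 or without MI replicate 2 the calls were lost, while without either sham replicate calls remained. Each of these fits holds a lone library in a group, and why they differed was not tested. With either MI library left out the fold changes of Gm4117 and Gm15716 stayed about as large, while those of some other called rows moved more. The log2 fold change of Gm4117 was 2.52 without MI replicate 1 and 2.58 without MI replicate 2. That of Gm15716 was 2.69 and 2.73.

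**Figure D1:**
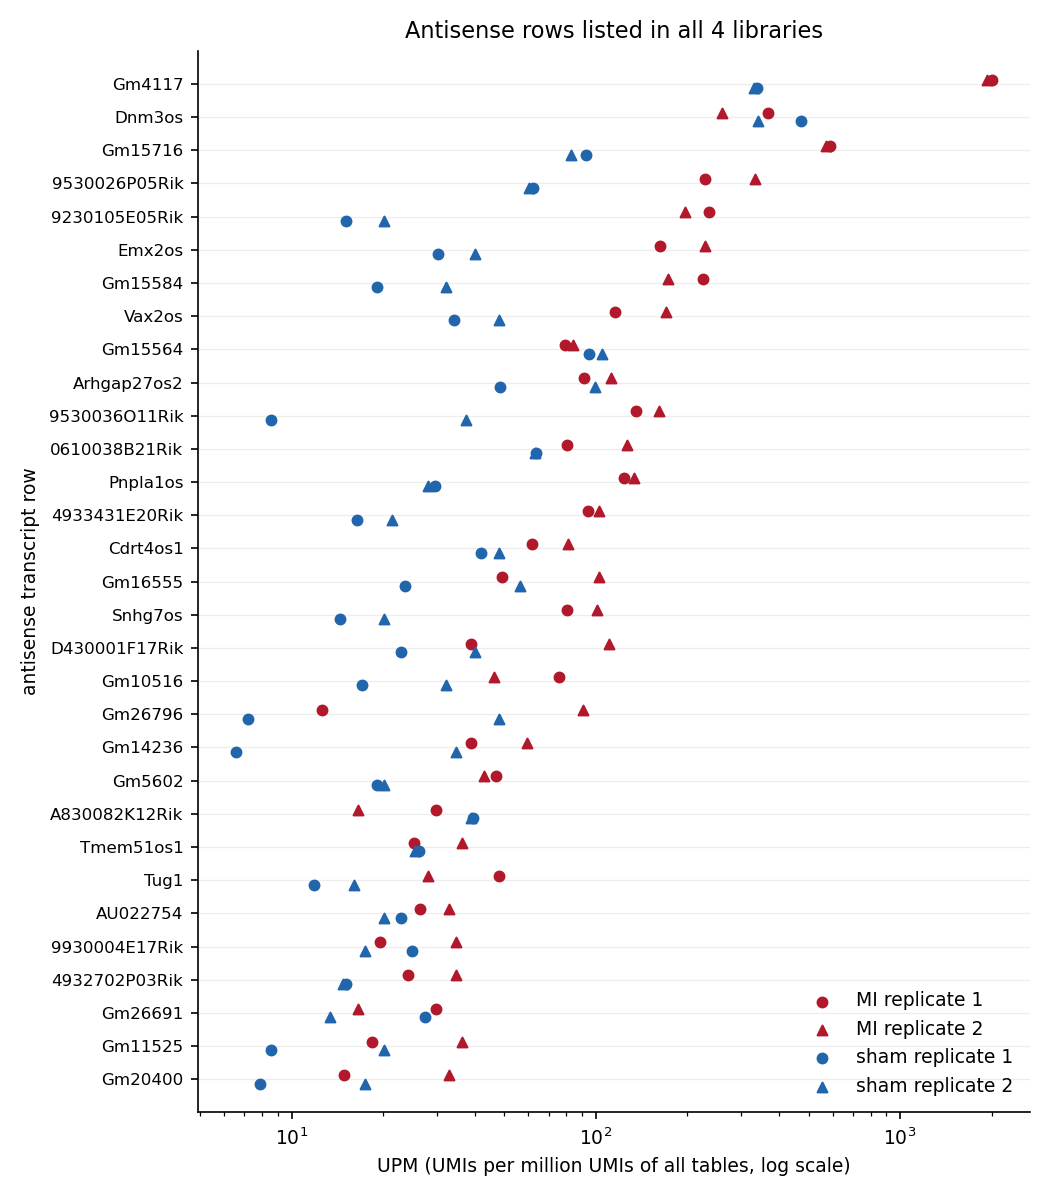
Level of each antisense row listed in all 4 libraries, in UPM on a log scale, with MI libraries in red and sham libraries in blue (circle, replicate 1; triangle, replicate 2). In 19 of the 31 rows both MI libraries lie to the right of both sham libraries, while Gm15564 and A830082K12Rik show the opposite order.

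Gm4117 was the most abundant antisense row. Its transcript is 52401 bases long on chromosome 13 and overlaps the span but no exon of Xrcc4, a scaffold protein of DNA end joining. It had 2004 and 1923 UPM in MI, against 338 and 331 in sham. Both MI libraries were high and close to each other. The log2 fold change was 2.55 ± 0.10 (SE; edgeR adjusted p = 0.00273). The row alone made up 33.2% and 29.6% of antisense UMIs in MI, against 22.7% and 16.5% in sham, and without it the difference of the summed levels between MI and sham was 2571 UPM in place of 4200.

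Gm15716 has a transcript of only 404 bases on chromosome 8, and 140 of them form its purine run. It overlaps the span but no exon of Slc18a1, a vesicular monoamine transporter, and its run lies in an intron of that gene. It had 587 and 572 UPM in MI, against 93.2 and 83.0 in sham, with no overlap. The log2 fold change was 2.71 ± 0.12 (edgeR adjusted p = 0.00273). Per kilobase of transcript it was the highest of the 31 rows, with a mean level of 826 UPM per kb over the 4 libraries, against 21.9 for Gm4117 and 3.87 for Tug1, the lowest.

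9230105E05Rik rose most among rows listed in all 4 libraries. It lies on chromosome 10 and overlaps the span of Hmga2, a chromatin protein of growth and development. It had 236 and 196 UPM in MI, against 15.1 and 20.1 in sham, and the groups were far apart. The log2 fold change was 3.64 ± 0.25 (edgeR adjusted p = 0.00426).

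Emx2os is transcribed opposite Emx2, a homeobox factor of forebrain and urogenital development. Of 35 names of antisense or developmental long non-coding RNAs on a list drawn up for this comparison, only Emx2os had an antisense row. Names were matched exactly and the list leaves out Dnm3os and Tug1, so the count does not show how rare described RNAs were. Emx2os had 163 and 229 UPM in MI, against 30.2 and 40.2 in sham. Its levels in MI exceeded both sham values, with a log2 fold change of 2.49 ± 0.30 (edgeR adjusted p = 0.0141). The names Foxd2os, Pantr1 and Fendrr also had rows, of other gene types. Foxd2os had 64.2 and 62.6 in MI and was unlisted in sham.

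Gm15584 overlaps the span of Brinp3, a protein induced by bone morphogenetic protein and retinoic acid in neurons. It had 225 and 173 UPM in MI, against 19.0 and 32.1 in sham (log2 fold change 2.99 ± 0.35, edgeR adjusted p = 0.0141). 9530026P05Rik, which overlaps the span of Adamts9, an extracellular protease, had 229 and 335 in MI, against 62.3 and 60.3 in sham (2.19 ± 0.25, edgeR adjusted p = 0.0135). In both rows the groups did not overlap.

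Pnpla1os overlaps exons of Pnpla1, an enzyme that makes the acylceramides of the skin barrier. It had 124 and 133 UPM in MI, against 29.5 and 28.1 in sham (log2 fold change 2.15 ± 0.23, edgeR adjusted p = 0.0115). 4933431E20Rik, opposite Eps8l3, a relative of the actin regulator Eps8, had 94.0 and 102 in MI, against 16.4 and 21.4 in sham (2.38 ± 0.34, edgeR adjusted p = 0.0228). Both rose with no overlap between groups. Snhg7os, with no overlapping opposite gene, had 80.2 and 101 in MI, against 14.4 and 20.1 in sham (2.39 ± 0.39, edgeR adjusted p = 0.0312). Vax2os had 116 and 170 in MI, against 34.1 and 48.2 in sham (1.80 ± 0.34, edgeR adjusted p = 0.0411). Its exons overlap Gm27631 on the other strand, and its groups were also separate.

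The 8 other rows past the test were listed in both MI libraries and in neither sham library, so their folds are lower bounds taken with 9 UMIs in each sham library. A830036E02Rik, opposite Krt12, the keratin of the corneal epithelium, had 69.9 and 79.1 UPM in MI and was at least 8.30-fold higher. A830082K12Rik transcript ENSMUST00000134705 was at least 5.56-fold higher, although with the rows of its gene summed the call was lost (log2 fold change 0.74, edgeR adjusted p = 0.209). A930012L18Rik, opposite Mcc, was at least 4.08-fold higher and Gm26627, opposite Kcp, at least 3.30-fold. Slc13a2os, Gm15651, Gm12207 and 1700026D11Rik had bounds between 1.75-fold and 2.47-fold, and they rest on 10 to 20 UMIs per MI library. The adjusted p-values of these 8 rows in edgeR lay between 0.0256 and 0.0460. With unlisted rows entered at 9 UMIs in place of 0, these 4 rows no longer passed (edgeR adjusted p = 0.0817 for Slc13a2os, 0.158 for Gm15651, 0.162 for Gm12207 and 0.262 for 1700026D11Rik).

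Of the named rows, 3 missed the edgeR test and passed DESeq2's Wald test, while 1 did the reverse. A pair of the 3, with large values, is described here. 9530036O11Rik overlaps exons of Shh, the secreted patterning signal. It had 135 and 162 UPM in MI, against 8.53 and 37.5 in sham (log2 fold change 2.76 ± 0.78, edgeR adjusted p = 0.0848, DESeq2 adjusted p = 0.000262), and it also passed in edgeR when only rows listed in all 4 libraries were fitted (adjusted p = 0.00959). The sham libraries differed from each other several-fold. Mettl5os, whose nearest opposite-strand gene is Mettl5, a ribosomal RNA methyltransferase, at 113 bases, had 90.5 and 114 in MI, against 11.2 in sham replicate 1, and was unlisted in sham replicate 2 (4.00 ± 1.32, edgeR adjusted p = 0.120, DESeq2 adjusted p = 0.000361).

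Not all abundant rows were higher after MI. Dnm3os, the transcript opposite Dnm3, a dynamin GTPase, was the second most abundant row by mean level and carries the hairpins of miR-199a-2 and miR-214 on its own strand. Dnm3os had 367 and 260 UPM in MI, against 473 and 340 in sham. The groups overlapped, and the log2 fold change was -0.38 ± 0.27 (edgeR adjusted p = 0.383). Mature miRNAs of these hairpins are shown with the seed, bases 2 to 8, in capitals, from RefSeq (GRCm38.p6), since miRNAs of these sequences are counted in the miRNA tables.
mmu-miR-199a-3p (chr1:162217883-162217904, + strand): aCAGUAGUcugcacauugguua
mmu-miR-199a-5p (chr1:162217844-162217866, + strand): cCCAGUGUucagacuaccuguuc
mmu-miR-214-3p (chr1:162223438-162223459, + strand): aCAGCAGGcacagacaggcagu
The row that holds miR-199a-3p had 751 and 550 UPM in MI, against 888 and 697 in sham. This miRNA shares its mature sequence with miR-199b-3p, so the row does not read the Dnm3os locus alone. In both groups the library with more Dnm3os fragments, replicate 1, also had more of this miRNA, and the relation was not tested. miR-199a-5p was listed only in sham replicate 1, at 15.8 UPM, and miR-214-3p and miR-214-5p were unlisted in all 4 libraries.

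Gm15564, which overlaps the span of Parp9, an ADP-ribosyltransferase of the interferon response, had 79.1 and 84.1 UPM in MI, against 95.2 and 104 in sham. Both MI libraries were below both sham libraries, but the log2 fold change of -0.29 ± 0.19 missed the threshold (edgeR adjusted p = 0.366). Its longest run was 11 bases. Tug1, a widely expressed long non-coding RNA with a gene span that overlaps Morc2a, had 48.1 and 28.0 in MI, against 11.8 and 16.1 in sham, with no overlap (1.45 ± 0.73, edgeR adjusted p = 0.254).

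A830082K12Rik, beside the nuclear receptor gene Nr2f1, gave 3 antisense rows, and 2 of them are set side by side because their values had opposite directions. The runs are again in capitals, and the window of ENSMUST00000137199 crosses from one exon into the next.
A830082K12Rik, transcript ENSMUST00000134705 (chr13:78202553-78202605, + strand): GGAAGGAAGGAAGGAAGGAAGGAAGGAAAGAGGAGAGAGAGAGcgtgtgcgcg
A830082K12Rik, transcript ENSMUST00000137199 (chr13:78200211-78200351, + strand): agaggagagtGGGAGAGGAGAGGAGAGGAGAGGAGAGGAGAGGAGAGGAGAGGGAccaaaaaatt
ENSMUST00000134705 had 35.5 and 64.3 UPM in MI and was unlisted in both sham libraries. ENSMUST00000137199 had 29.8 and 16.5 in MI, against 39.4 and 38.8 in sham. Both MI libraries were below the sham libraries, with a log2 fold change of -0.75 ± 0.64 (edgeR adjusted p = 0.457). The difference between the rows was not tested.

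The length of the longest run was compared with the fold change over the 31 rows listed in all 4 libraries. The relation was noticed in these values and is given as a description. In the 19 rows with a run of at least 40 bases the median log2 fold change was 2.15, with 10 rows called higher and both MI libraries above both sham libraries in 15, where 73.7% of all other-RNA rows listed in all 4 libraries did so. In the 12 rows with a shorter run the median was 0.68, with 0 called and MI above sham in 4. Of all 219 other-RNA rows tested, listed in all 4 libraries or not, 28.8% were called higher. Relative to the median of all tested rows, 1.57, these medians were 0.58 above and 0.89 below. All 10 called rows of the 31 had a run of 55 to 218 bases. Just under the limit of 40 bases, Dnm3os (29 bases) had a log2 fold change of -0.38 ± 0.27 and Cdrt4os1 (30 bases) one of 0.66 ± 0.33. Just over it, Gm10516 (41 bases) had 1.32 ± 0.60 and A830082K12Rik transcript ENSMUST00000137199 (45 bases) had -0.75 ± 0.64.

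The gap between those medians was 1.47 in log2 units, and between 1.21 and 1.58 with 1 library left out. Scaling cannot change it, since a scaling factor shifts all rows nearly alike. Under the scalings within the other-RNA table that common shift put the median of the rows with shorter runs at -0.43, -0.57 and -0.14 (TMM factors, DESeq2 size factors and the table's own total) and that of the rows with long runs at 1.04, 0.91 and 1.35. The Spearman correlation between run length and log2 fold change was 0.68 over the 31 rows, against 0.22 for transcript length, 0.47 for mean level and -0.17 for GC content. The rows share the same 4 libraries, and several share repeat units, so they are not independent. In the 43 lincRNA and processed transcript rows listed in all 4 libraries this correlation with run length was 0.84, so the same order was seen outside antisense transcripts.

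**Figure D2:**
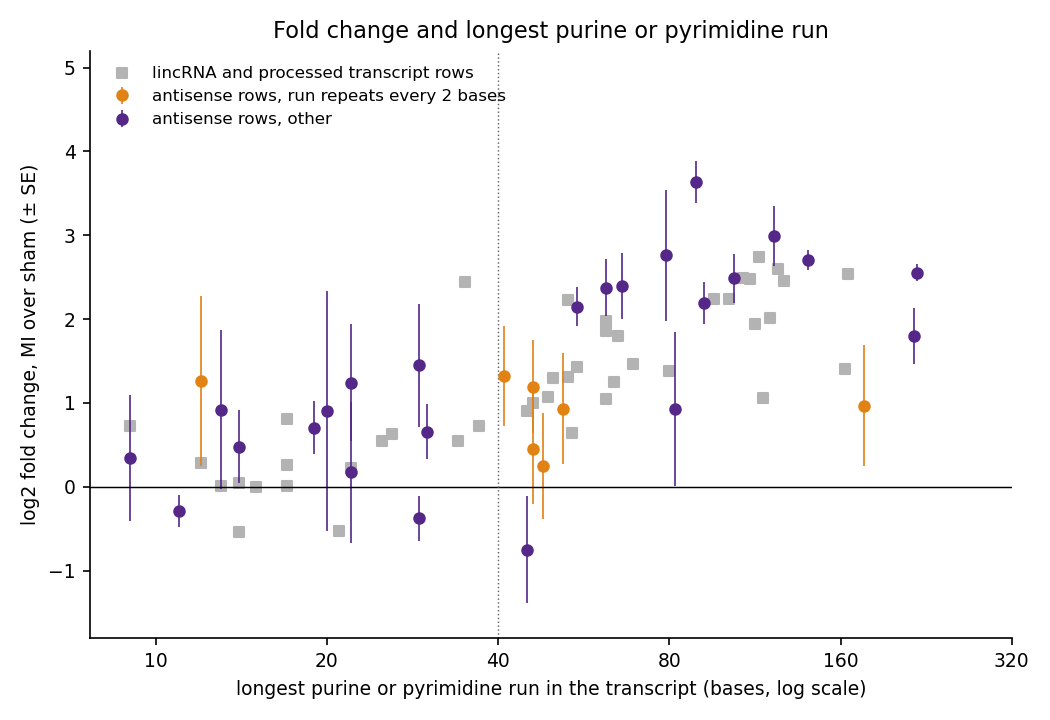
Log2 fold change, MI over sham, with its SE for antisense rows, against the longest purine or pyrimidine run of the transcript on a log scale. Antisense rows in purple (orange where the run repeats every 2 bases) and lincRNA and processed transcript rows in grey, all listed in all 4 libraries, lie mostly under 1 left of the dotted line at 40 bases and mostly over 1 right of it.

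Among the long runs, kind of repeat and length mostly went together. Of the 19 rows with a run of at least 40 bases, 6 had runs that repeated every 2 bases, GA or its complement. Their median was 0.95, with 0 called, while the other 13 had a median of 2.39 with 10 called. The share called higher was 28.8% over all 219 other-RNA rows tested. Of the 6 runs, 5 were only 41 to 52 bases long, and that of 4932702P03Rik was 176 bases long, with a log2 fold change of 0.97. Among runs of other kinds, that of Pnpla1os (55 bases) had 2.15. That of A830082K12Rik transcript ENSMUST00000137199 (45 bases) had -0.75. Whether the fold changes followed repeat kind or run length was not tested. In lincRNA and processed transcript rows with long runs, the 11 that repeated every 2 bases had a median of 1.25 with 2 called, and the 16 others a median of 2.23 with 12 called. Runs that repeat every 2 bases are shown for 4 of the 6 rows, for contrast with the sequences above.
Gm16555 (chr17:49818187-49818258, - strand): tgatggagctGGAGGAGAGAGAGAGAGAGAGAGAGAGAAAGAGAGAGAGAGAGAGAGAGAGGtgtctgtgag
Gm5602 (chr7:130862396-130862461, - strand): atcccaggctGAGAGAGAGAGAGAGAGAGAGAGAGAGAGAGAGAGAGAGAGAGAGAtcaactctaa
Gm10516 (chr1:192149126-192149186, + strand): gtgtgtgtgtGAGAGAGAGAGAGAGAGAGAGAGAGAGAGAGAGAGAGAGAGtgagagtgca
Tmem51os1 (chr4:142085001-142085068, + strand): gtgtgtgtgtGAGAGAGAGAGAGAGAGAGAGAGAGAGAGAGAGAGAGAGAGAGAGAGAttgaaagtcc
Gm16555, which overlaps the span of the kinesin gene Kif6, had 49.3 and 102 UPM in MI, against 23.6 and 56.3 in sham, with overlap (log2 fold change 0.93 ± 0.66). Gm5602, which overlaps the span of Plekha1, had 47.0 and 42.9 in MI, against 19.0 and 20.1 in sham (1.20 ± 0.55). Gm10516, opposite the corepressor Rcor3, had 75.6 and 46.1 in MI, against 17.1 and 32.1 in sham (1.32 ± 0.60). Tmem51os1, opposite Tmem51, had 25.2 and 36.3 in MI, against 26.3 and 25.5 in sham (0.25 ± 0.63). None of the 4 passed the test. AU022754, opposite the signal Wnt7b, and 4932702P03Rik, opposite Aldh5a1, an enzyme of GABA breakdown, had the other such runs, with 0.46 ± 0.66 and 0.97 ± 0.72. Outside this class, Gm11525 had a run of 82 bases and a value of 0.93 ± 0.92.

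Rows without a long run are represented by a pair of transcripts with GC-rich sequence, whose longest runs are printed for comparison.
0610038B21Rik (chr8:77518069-77518107, + strand): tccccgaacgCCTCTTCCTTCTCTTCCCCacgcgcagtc
Arhgap27os2 (chr11:103359947-103359980, + strand): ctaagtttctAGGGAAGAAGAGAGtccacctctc
0610038B21Rik, opposite Arhgap10, had 80.2 and 127 UPM in MI, against 63.7 and 63.0 in sham (log2 fold change 0.70 ± 0.32, edgeR adjusted p = 0.222). Arhgap27os2, opposite Arhgap27, had 91.7 and 112 in MI, against 48.6 and 99.1 in sham (0.48 ± 0.43, edgeR adjusted p = 0.471). The groups overlapped in Arhgap27os2 and not in 0610038B21Rik. The remaining 8 rows with short runs had log2 fold changes between 0.17 and 1.45, and none passed the test.

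Summed over the rows of each class, nearly the whole difference lay in rows whose transcript holds a long run. Where on a transcript the fragments lay is not given. The 39 antisense rows with a run of at least 40 bases summed to 4850 and 5022 UPM in MI, against 912 and 1003 in sham, a ratio of 5.15. Gm4117 alone had a mean of 1963 UPM in MI and 334 in sham. The 69 rows with shorter runs summed to 1193 and 1480 in MI, against 1176 and 1053 in sham, a ratio of 1.20. The second pair of groups differed by less than the gap between the MI libraries. In lincRNA and processed transcript rows the ratio was 4.78 with a long run and 1.51 without.

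**Figure D3:**
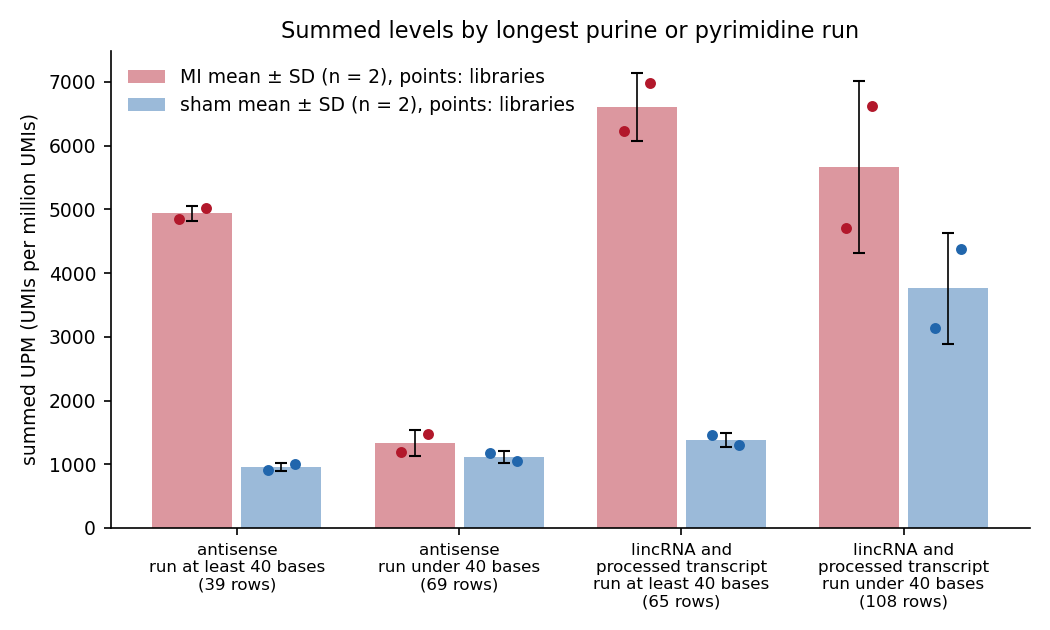
Summed UPM of antisense rows and of lincRNA and processed transcript rows, split by a longest run of at least or under 40 bases. Bars are means with SD over 2 libraries, points are libraries, and MI is left of sham. The antisense rows with long runs reach 4850 and 5022 in MI, against 912 and 1003 in sham, and those with shorter runs lie between 1053 and 1480 in all 4 libraries.

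Transcripts with long runs were also a larger share of the rows than of the annotation. A run of at least 40 bases was held by 61.3% of the 31 rows listed in all 4 libraries and 36.1% of the 108 rows, against 2.80% of the 4145 antisense transcripts in the annotation outside X and Y. The rows were longer, with a median of 1868 bases against 753 bases. Among transcripts of 1000 to 5000 bases the shares were 40.6% of 64 rows and 5.35% of 1513 annotated transcripts. The shares of the 108 and of the 64 rows depend on the levels, since a row is listed from 10 UMIs on. They include rows with long runs listed only in MI, such as A830036E02Rik and Slc13a2os. Others, such as Gm17029 and B430010I23Rik, were listed only in sham.

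**Figure D4:**
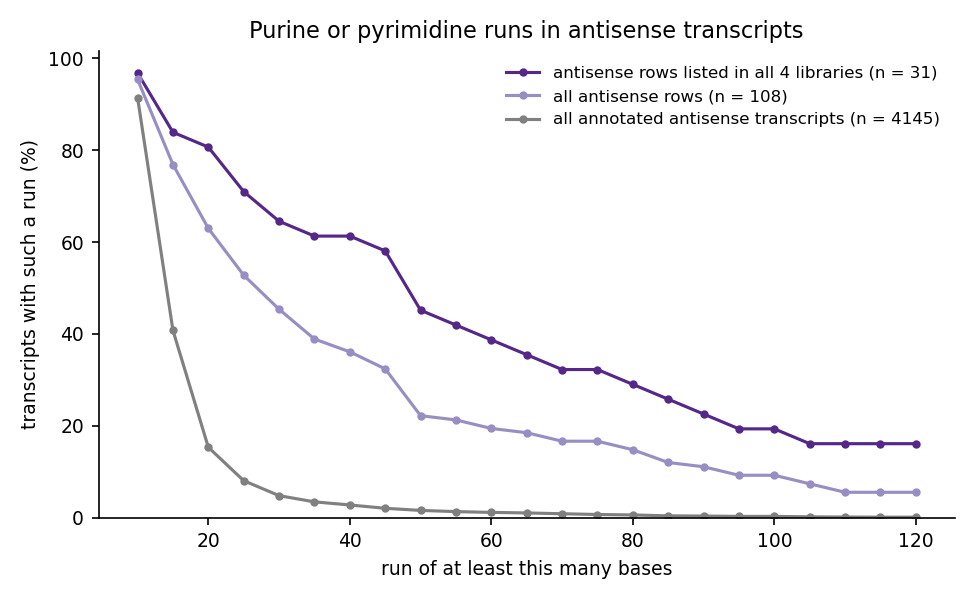
Share of antisense transcripts with a purine or pyrimidine run of at least the length on the horizontal axis. At 40 bases the share is 61.3% for the 31 rows listed in all 4 libraries, 36.1% for all 108 rows and 2.80% for the 4145 annotated transcripts.

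Placement on a single transcript is uncertain for any fragments that come from such runs. On either strand, 18 bases of GGAA repeat occur in 436 annotated transcripts of 350 genes, of GAA repeat in 322 transcripts of 230 genes, of GAAA repeat in 778 transcripts of 583 genes and of GA repeat in 2198 transcripts of 1596 genes. How reads with several matching places were assigned was not given in the sources used here, and the fragments' own sequences are not in the tables used here. Levels of rows such as Gm15584 or Emx2os are therefore uncertain, and the share of their fragments that came from other loci with the same repeat was not tested. All 6 antisense rows listed in all 4 libraries with 18 bases of GGAA repeat had both MI libraries above both sham libraries, as did 73.7% of all other-RNA rows listed in all 4 libraries, and their median log2 fold change was 2.44. In the 39 antisense rows with long runs the run lay in an intron of an opposite-strand gene in 22, outside any such gene in 17 and in an exon of one in 0.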

How the data were processed

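Per the file headers, the deposited values are raw UMI counts and raw read counts per feature, with no normalization recorded. The QIAseq miRNA kit was used to make the libraries, per the labels' protocols. The aligner, its version, the genome build and the treatment of strand and of reads with several matches were not given in the sources used here. Transcript identifiers of the other-RNA rows were matched without version to GENCODE M21 (GRCm38): 397 of 411 matched, and the 14 others include ribosomal RNA. The opposite gene is the one with the longest exon overlap on the other strand, or else the longest overlap of gene spans.

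UMI counts of all other-RNA rows were fitted in edgeR 4.0.16 (R 4.3.3) with the quasi-likelihood F-test, two-sided, with the UMI total of all tables as library size, filterByExpr within groups (counts of at least 10, totals of at least 15), and p-values adjusted after Benjamini-Hochberg over all rows tested, with a threshold of 0.05. Each standard error was taken as |log2 fold change| over the root of F. The fit was run on counts simulated with a dispersion (scatter beyond counting noise) of 0.076, that of rows listed in all 4 libraries. It called 67.2% of tested rows changed 4-fold, 83.2% of those changed 8-fold and 2.59% of unchanged rows. The common dispersion of the fit itself was 0.589, so these shares may not hold for the real counts. DESeq2 1.42.0 and other scalings, filters and left-out libraries were alternatives. Runs and repeats were found with Python 3.11.15. A run is the longest stretch of only A and G or only C and T, and 18 bases define a repeat match.

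Named rows are those past the threshold, those listed in all 4 libraries, and rows up to 25 by mean level, 41 in all. The members, lists and the run comparison were chosen with earlier results of these data known, and the limit of 40 bases was set after seeing values. Runs of some rows past the threshold are not reported here.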

Additional observations from a re-analysis of the deposited data

How the results depend on the processing

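The main count of antisense rows called higher was 18, with 0 lower. It was 0 with TMM factors, with DESeq2 size factors and with the UMI total of the other-RNA table, all within that table, 7 with read counts, 11 with rows listed in all 4 libraries only (31 rows tested) and 9 with the replicate block. The lower count was 1 without a filter and 1 with at least 10 UMIs in both libraries of a group. Leaving out a library gave 0 to 20 higher and 0 lower, with the lone library of a group assumed to vary like the other group. For all rows, 63 higher and 2 lower, the settings gave 0 higher with each of the 3 scalings within the table, 27 with read counts, 102 with unlisted rows at 9 UMIs and 35 with the replicate block. The lower count was 0 with those 3 scalings, the DESeq2 test, read counts, unlisted rows at 9 UMIs, rows listed in all 4 libraries and the replicate block, 1 without a filter and 5 with at least 10 UMIs in both libraries of a group. Leaving out a library gave 0 to 77 higher and 0 lower. Numbers do not pair the libraries by the labels. Deviations of same-numbered libraries correlated at 0.375, with only 2 pairs. The summed difference of 4200 UPM was 11821 per 1000000 other-RNA UMIs, 2571 without Gm4117, 3544 with reads, 3597 over rows listed in all 4 libraries, and 3971 to 4430 when a library was left out. Restricted after seeing the data, it was 222 without rows with runs of at least 40 bases and 3978 with only these. Signs turned negative for named rows that had not passed. With TMM within the table log2 fold changes were -0.56 for Arhgap27os2, -0.43 for 0610038B21Rik, -0.44 for Cdrt4os1, -0.12 for Gm16555, -0.12 for Gm26796, -0.87 for Tmem51os1, -0.66 for AU022754, -0.82 for 9930004E17Rik, -0.15 for 4932702P03Rik, -0.96 for Gm26691, -0.12 for Gm11525 and -0.14 for Gm20400. With DESeq2 size factors they were -0.71 for Arhgap27os2, -0.57 for 0610038B21Rik, -0.58 for Cdrt4os1, -0.28 for Gm16555, -0.016 for D430001F17Rik, -0.30 for Gm26796, -0.021 for Gm5602, -1.01 for Tmem51os1, -0.80 for AU022754, -0.96 for 9930004E17Rik, -0.29 for 4932702P03Rik, -1.07 for Gm26691, -0.27 for Gm11525 and -0.30 for Gm20400. With the other-RNA total they were -0.27 for Arhgap27os2, -0.14 for 0610038B21Rik, -0.14 for Cdrt4os1, -0.58 for Tmem51os1, -0.36 for AU022754, -0.54 for 9930004E17Rik and -0.60 for Gm26691, which was also -0.077 with TMM over all tables and -0.20 with read counts. Leaving out a library gave -1.12 to 2.80 for Gm26796, -0.036 to 0.49 for Tmem51os1, -0.12 to 0.70 for 9930004E17Rik and -0.32 to 0.79 for Gm26691. Why the scalings differ was not tested. With rows of the same gene summed, A830082K12Rik no longer passed (0.74, edgeR adjusted p = 0.209). With a listing floor of 10 UMIs, the level of an unlisted row is known only as a limit.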

Other observations

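Amplification differed little between groups for antisense rows, with 7.87 and 7.67 reads per UMI in the MI libraries and 8.92 and 7.62 in the sham libraries. In 10 of the 108 rows every listing library had under 2 reads per UMI. Of these, 9930004E17Rik was listed in all 4 libraries, with 19.5 and 34.6 UPM in MI, against 24.9 and 17.4 in sham.

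Rows seen in a single library were frequent. Of 48 such rows, 11 were listed only in MI replicate 1 and 5 only in MI replicate 2. Sham replicate 1 alone listed 25, and sham replicate 2 alone listed 7. Sham replicate 1 was the deepest library, where 10 UMIs correspond to 6.56 UPM. Gm13580 was listed in neither MI library and in both sham libraries.

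The 6 sense-intronic rows of the same tables, transcripts that lie within introns on the strand of their host gene, had the largest ratio of the gene types with at least 6 rows and values in all 4 libraries. They summed to 1291 and 1262 UPM in MI, against 179 and 220 in sham, a ratio of 6.40.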
